A study of Mus musculus with 8 samples.

Results

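Levels of 10 genes whose products fill the granules of neutrophils or sit on their surface were described in mouse heart muscle: Mpo, Ltf, Camp, Ngp, Lcn2, Mmp8, Mmp9, Retnlg, Csf3r and Cxcr2. The genes were found as probes whose RefSeq transcript carries one of these symbols, which gave 11 of the 39429 non-control probes (1 probe per gene and 2 for Camp), and 10 of the 20659 symbols on the array. Total RNA of the myocardium of untreated male mice was labelled with Cy3 and hybridised to 1 Agilent expression array per sample. The design text of the series names an m6A array, while its type and the files are those of expression profiling, and signals were read as RNA levels. The arrays labelled NPRA-/- (3) were compared with those labelled NPRA+/+ (5). NPRA is the product of Npr1 and binds the natriuretic peptides that the heart releases. The series title calls the deficiency cardiac, and the labels' protocols name a floxed line. The sources used here do not give the Cre driver, the age of the mice or whether the NPRA+/+ mice carried floxed alleles. The labels do not say which arrays came from separate animals, so the p-values rest on a spread between samples that may be technical.

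Neutrophils are short-lived white blood cells that leave the bone marrow under the growth factor G-CSF and enter tissue along chemokine gradients. Their granule proteins are made in sequence as the cells mature in the marrow: peroxidase and serine proteases of the primary granules come early, lactoferrin, cathelicidin, lipocalin and collagenase of the secondary granules later, and gelatinase last. Mature cells in blood and tissue keep the proteins but little of the RNA of the early granules, while RNA for the receptors of G-CSF and of chemokines stays on. In bulk tissue such as this, fewer cells of a type and less RNA per cell cannot be told apart.

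Levels below are log2 processed signals minus the array's own 75th percentile. The share of probes well above background ran from 79.5% to 92.6% over the arrays. The brightest markers of heart muscle (Actc1, Myl2 and Myh6) were detected on all of them, with Myh6 at 6.79 to 8.07 on NPRA-/- arrays and 5.89 to 7.73 on NPRA+/+ arrays. The single probe of Npr1 was near background and lay between -6.42 and -5.53 on NPRA-/- arrays and between -6.55 and -4.77 on NPRA+/+ arrays (limma, adjusted p = 0.978). Where it lies relative to the deleted part is unknown here, so it is no check of the labels, and every direction below rests on them. Across all 35329 probes tested the median change of NPRA-/- over NPRA+/+ was itself 0.21 on the log2 scale, and it was larger for dim probes: 0.63, 0.40, 0.22, 0.05 and 0.05 in 5 equal groups of probes from dimmest to brightest. The change of a gene is therefore given beside the median of its own brightness group or after quantile normalization. Replicates 1 of both genotypes, scanned on days of their own, stood apart from the other arrays on the first principal component (47.3% of the variance), and results that rest on them are given with and without them.

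None (0) of the 9 genes that could be tested differed between the genotypes at an adjusted p under 0.05 (limma), where 0.348% of all probes did. Without adjustment 2 of the 9, Mmp8 and Mmp9, had a p under 0.05, in both cases with the higher mean in NPRA-/- hearts. So did 18.3% of all probes, and 36.6% of those in the dimmest group, to which both belong. All 9 had fitted changes above 0, as did 75% of all probes. Their median change was 0.33 against 0.21 for all probes. After quantile normalization, which takes away the shift of dim probes, the median of the 9 was -0.14 against 0.00 for all probes, and 4 of the 9 were above 0. A probe counted as detected on an array if a share of 0.5 or more of its spots was well above background. By that measure 5 of the 10 genes (Ltf, Camp, Lcn2, Retnlg and Csf3r) were detected on all 8 arrays and 1, Ngp, on none of them.

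**Figure D1:**
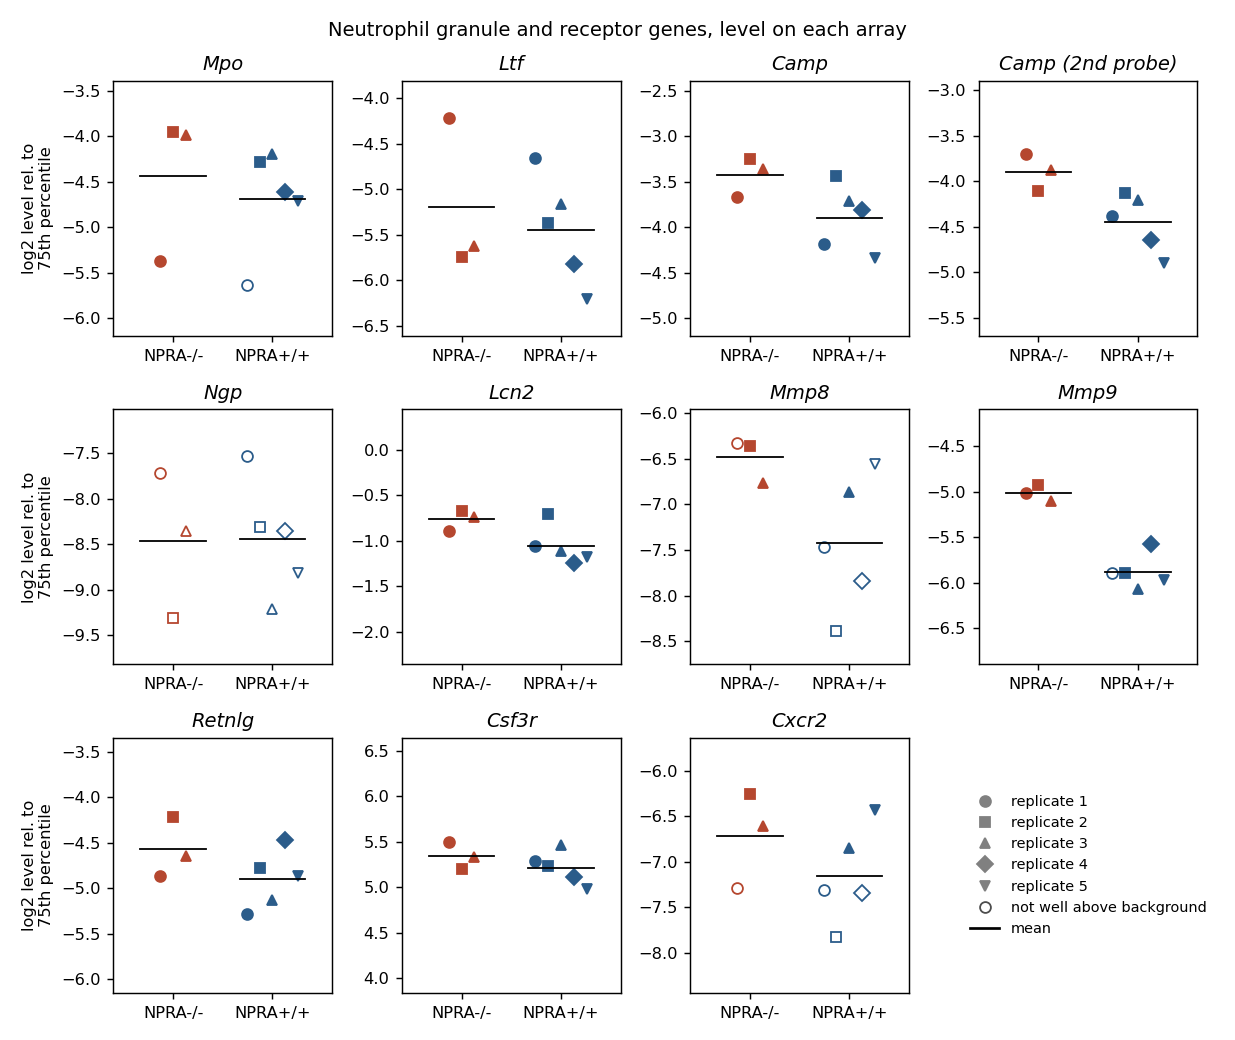
Level of each of the 11 probes on each array, as log2 signal relative to the array's 75th percentile (vertical axis, every panel spanning the same range of 2.8 log2 units), with NPRA-/- arrays left of NPRA+/+ arrays. Open symbols are arrays on which the probe was not well above background and lines are group means; Mmp9 and the second Camp probe are the panels in which the genotypes do not overlap, and every symbol of Ngp is open.

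Mpo encodes myeloperoxidase, the enzyme of the primary granules that turns hydrogen peroxide and chloride into hypochlorous acid. Its level was -5.37, -3.96 and -3.99 on NPRA-/- arrays 1 to 3, against -5.63, -4.29, -4.20, -4.61 and -4.71 on NPRA+/+ arrays 1 to 5. Replicate 1 was the lowest array of either genotype, and on the NPRA+/+ replicate 1 array Mpo was not well above background. The genotypes overlapped, and the fitted change of 0.25 ± 0.42 (SE; limma, adjusted p = 0.795) lay below the 0.40 of similarly bright probes. Within scan day 1, which holds replicates 2 and 3 of both genotypes, the change was 0.27 ± 0.09 (limma, adjusted p = 0.120).

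Ltf encodes lactoferrin, the iron-binding protein of the secondary granules. Its level was -4.22, -5.74 and -5.63 in NPRA-/- hearts, against -4.66, -5.38, -5.16, -5.82 and -6.21 in NPRA+/+ hearts. Here replicate 1 was the highest array of either genotype, whereas for Mpo it was the lowest, and the genotypes overlapped. The fitted change was 0.25 ± 0.44 (limma, adjusted p = 0.805), against 0.63 for probes of its brightness. Its sign rested on the replicates 1: it was -0.04 without both of them, -0.24 without NPRA-/- replicate 1 alone and -0.42 ± 0.12 within scan day 1 (limma, adjusted p = 0.091).

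Camp encodes the cathelicidin precursor, which is cut to an antimicrobial peptide when secondary granules empty. Its brighter probe was at -3.67, -3.25 and -3.36 in NPRA-/- hearts, against -4.19, -3.43, -3.72, -3.82 and -4.34 in NPRA+/+ hearts, where only replicate 2 reached the range of the NPRA-/- arrays. Its other probe was at -3.70, -4.10 and -3.88 on NPRA-/- arrays, against -4.38, -4.12, -4.20, -4.64 and -4.90 on NPRA+/+ arrays. The genotypes did not overlap for this probe, as for 14.1% of all probes in the same direction and 22.3% of those in its brightness group, and NPRA-/- replicate 2 and NPRA+/+ replicate 2 lay 0.023 apart. Its unadjusted p of 0.0267 was under 0.05, as for 31.3% of that group. The fitted changes were 0.47 ± 0.23 and 0.56 ± 0.21 (limma, adjusted p = 0.298 and 0.193), against 0.40 for similarly bright probes. Over the 8 arrays the probes of Camp correlated with r = 0.72 (exact permutation p = 0.0421) and rho = 0.81 (exact permutation p = 0.0218), and with r = 0.43 (exact permutation p = 0.424) once the 2 arrays farthest from the median were left out. The size of r thus depended on those arrays, but leaving out extremes also narrows the range. Without both replicates 1 r was 0.92 (exact permutation p = 0.00556).

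Ngp encodes neutrophilic granule protein, a secondary granule protein related to cystatins and among the most abundant transcripts of maturing mouse neutrophils. It was not well above background on any array (0 of 3 NPRA-/- and 0 of 5 NPRA+/+). Its processed signal lay between 1.32 and 5.84, while the dimmest spot that counted as well above background had between 6.12 and 23.4, depending on the array. The mean level was -8.46 ± 0.80 (SD, n = 3) in NPRA-/- hearts and -8.45 ± 0.63 (SD, n = 5) in NPRA+/+ hearts. With both groups below background no fold change is given.

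Lcn2 encodes lipocalin-2, which withholds iron from bacteria by binding their siderophores and is made by many cell types besides neutrophils. Its probe was well above background on every array. The level was -0.89, -0.67 and -0.74 in NPRA-/- hearts, against -1.05, -0.70, -1.11, -1.24 and -1.18 in NPRA+/+ hearts. All NPRA-/- arrays lay above 4 of the 5 NPRA+/+ arrays, and replicate 2 of NPRA+/+ lay among them. The fitted change was 0.29 ± 0.16 (limma, adjusted p = 0.340), against 0.05 for probes of its brightness, and 0.21 after quantile normalization. The change kept its sign under all 26 alternatives run, between 0.0025 and 0.38, with adjusted p from 0.181 to 0.996 (limma).

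The sequences before the start sites of Camp, Lcn2 and Ngp are shown to compare what precedes these genes of the same granules. Ngp stayed below background. The correlation of Camp and Lcn2 kept a positive sign under every setting tried (with values further on). It did not pass adjustment, and some other pairs also kept their sign. Promoter sequences from RefSeq (GRCm38.p6) were found for 9 of the 10 genes (all but Mmp9), and the 250 bases before the start site are printed 5′ to 3′ on the gene's strand. Capitals mark 2 motifs searched on both strands: TTNCNNAA, the core that C/EBP factors of granulocyte maturation bind, and GAGGAA, a core of the myeloid factor PU.1. The regions are chr9:109849457-109849706 on the minus strand (Camp), chr2:32387740-32387989 on the minus strand (Lcn2) and chr9:110419558-110419807 on the plus strand (Ngp).
Camp: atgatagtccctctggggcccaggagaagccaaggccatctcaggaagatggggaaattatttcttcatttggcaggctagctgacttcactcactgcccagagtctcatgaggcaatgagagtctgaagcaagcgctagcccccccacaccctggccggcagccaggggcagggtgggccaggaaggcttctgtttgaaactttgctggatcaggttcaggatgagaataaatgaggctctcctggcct
Lcn2: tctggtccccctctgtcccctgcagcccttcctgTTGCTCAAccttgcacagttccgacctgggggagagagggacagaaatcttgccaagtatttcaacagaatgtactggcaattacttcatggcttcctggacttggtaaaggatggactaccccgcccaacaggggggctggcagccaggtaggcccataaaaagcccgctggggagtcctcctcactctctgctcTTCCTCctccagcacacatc
Ngp: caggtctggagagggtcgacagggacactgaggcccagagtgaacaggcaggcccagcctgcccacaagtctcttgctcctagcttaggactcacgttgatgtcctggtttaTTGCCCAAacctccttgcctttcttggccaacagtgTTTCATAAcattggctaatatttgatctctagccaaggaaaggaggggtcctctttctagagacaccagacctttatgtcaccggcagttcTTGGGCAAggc
Ngp held 3 matches of TTNCNNAA, starting 138, 102 and 11 bases before the start site, and none (0) of GAGGAA. Lcn2 held 1 match of each, with TTNCNNAA starting 216 bases before the start site, and Camp 0 of either. Ltf and Mmp8, also of the secondary granules but not printed, each held 2 matches of TTNCNNAA and 1 of GAGGAA. Among all 32851 promoters of the table, 36.8% held TTNCNNAA and 23.3% held GAGGAA in the same window. These are matches of letters and show no binding.

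Mmp8 encodes the neutrophil collagenase, which cleaves the fibrillar collagens of the heart's matrix. It was close to background throughout: it was well above it on 2 of 3 NPRA-/- arrays (replicates 2 and 3) and 1 of 5 NPRA+/+ arrays (replicate 3), with processed signals between 2.47 and 12.0. The level was -6.33, -6.36 and -6.76 in NPRA-/- hearts, against -7.46, -8.39, -6.87, -7.84 and -6.55 in NPRA+/+ hearts. Replicate 5 of NPRA+/+ lay within the range of the NPRA-/- arrays, and the NPRA+/+ arrays spread over 1.84 log2 units, against 0.43 for the NPRA-/- arrays. The fitted change was 0.94 ± 0.40 (limma, adjusted p = 0.244), against 0.63 for probes as dim, and 0.11 after quantile normalization.

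Mmp9 encodes gelatinase B, the matrix protease of the tertiary granules, which macrophages and other cells of the heart also make. Its probe is printed 10 times on each array, and the level was -5.02, -4.93 and -5.11 in NPRA-/- hearts, against -5.90, -5.89, -6.07, -5.57 and -5.97 in NPRA+/+ hearts. Every NPRA-/- array lay above every NPRA+/+ array, by at least 0.47 log2 units. Separation in this direction by any gap, however small, was seen for 24.9% of the probes in the dimmest group. The fitted change was 0.86 ± 0.14, a 1.82-fold difference, and missed the threshold (limma, unadjusted p = 0.000291, adjusted p = 0.0593). The median change of the dimmest group, to which Mmp9 belongs, was 0.63. After quantile normalization the change of Mmp9 was 0.30 ± 0.19 (limma, adjusted p = 0.736).

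Mmp9 passed the threshold under 5 settings, each of which also moved the number of other calls. Within scan day 1 the change was 0.97 ± 0.12 (limma, adjusted p = 0.0256), where 15.6% of probes were called higher. Without NPRA+/+ replicate 1 it was 0.86 (limma, adjusted p = 0.0233, with 11% of probes called higher), without both replicates 1 it was 0.86 (limma, adjusted p = 0.0319, with 11.2%), and with array weights it was 0.90 (limma, adjusted p = 0.00133, with 25.4%). Keeping spots with an outlier flag gave 0.91 (limma, adjusted p = 0.0459), where 0.105% of probes were called higher. With a block for the repetition number the adjusted p was 0.136, and with a block for the source name number 0.0838 (limma).

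The 10 printed spots show how precise each array's value is. On NPRA-/- replicates 1 to 3, 9, 10 and 9 of the 10 spots were well above background, against 4, 7, 9, 8 and 8 on NPRA+/+ replicates 1 to 5. The SD between the 10 spots of an array ranged from 0.28 (NPRA+/+ replicate 5) to 0.84 log2 units (NPRA+/+ replicate 4). Without flagged spots it ranged from 0.19 to 0.78, and replicate 4 was then the lowest. The spot with the highest row number read -6.00 and -6.76 on NPRA-/- replicates 2 and 3, against -7.99, -7.87 and -7.98 on NPRA+/+ replicates 2, 3 and 4. It was the dimmest of the 10 on these 5 arrays, and it was not the dimmest on the other 3 (both replicates 1 and NPRA+/+ replicate 5). The scanner software had set an outlier flag on 3 spots of NPRA+/+ replicate 4, among them this one, and on 3 spots of NPRA+/+ replicate 5. The median of the 10 spots, on which 1 dim spot has little effect, was -5.15, -4.80 and -4.89 in NPRA-/- hearts, against -5.77, -5.62, -5.81, -5.54 and -5.99 in NPRA+/+ hearts, again without overlap. Fitted with medians of the unflagged spots, the change was 0.80 ± 0.16 (limma, adjusted p = 0.0688).

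**Figure D2:**
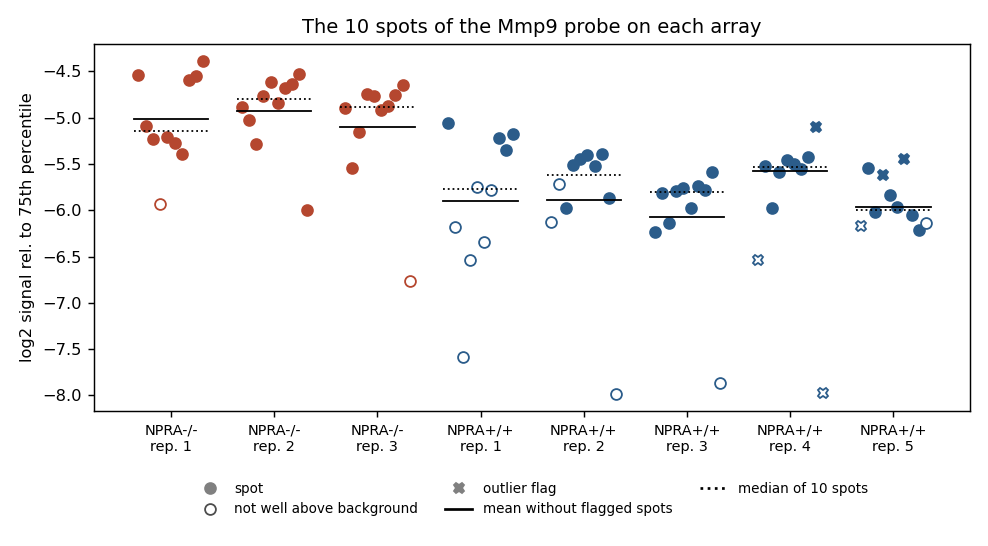
The 10 spots of the Mmp9 probe on each array, in order of their position from left to right (log2 signal relative to the array's 75th percentile), NPRA-/- arrays left of NPRA+/+ arrays. Open symbols were not well above background, crosses carry an outlier flag, solid lines are means without flagged spots and dotted lines are medians of all 10; on 5 arrays the rightmost spot is the dimmest.

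Retnlg encodes resistin-like gamma, a small secreted protein of mouse neutrophils. Its level was -4.86, -4.22 and -4.64 in NPRA-/- hearts, against -5.28, -4.78, -5.13, -4.47 and -4.86 in NPRA+/+ hearts. The genotypes overlapped, with replicate 4 the highest of the NPRA+/+ arrays. The fitted change of 0.33 ± 0.22 (limma, adjusted p = 0.460) was smaller than the 0.63 of the dimmest group and the 0.40 of the next. Retnlg lay near the edge between these groups. Its change was -0.16 after quantile normalization.

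Csf3r encodes the G-CSF receptor, which drives neutrophil production and survival. Its probe was in the brightest of the 5 groups of probes, with processed signals between 31225 and 43263, and it was not saturated. The level was 5.50, 5.20 and 5.33 in NPRA-/- hearts, against 5.29, 5.24, 5.46, 5.11 and 4.98 in NPRA+/+ hearts. The arrays of both genotypes lay within 0.52 log2 units, and the fitted change was 0.13 ± 0.15 (limma, adjusted p = 0.689), or -0.14 after quantile normalization. The level of Csf3r on every array was above the summed level of the 13 macrophage and monocyte genes tested (4.25 to 4.71 over the arrays). These are signals of different probes, and they do not rank the amounts of RNA. Of the other genes, Ngp was undetected, and Mmp8 and Cxcr2 were near background. Ltf, Camp, Lcn2 and Retnlg were detected on all 8 arrays, and Mpo and Mmp9 on 7. Heart muscle cells of the mouse are known to make some of the G-CSF receptor. A bulk signal does not say which cells it came from, and the source of the Csf3r signal was not tested. Whether this probe also binds other transcripts was not tested, as the probe sequences are not used here.

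Cxcr2 encodes the chemokine receptor that draws neutrophils along gradients of Cxcl1, Cxcl2 and Cxcl5. It was close to background, and well above it on 2 of 3 NPRA-/- arrays (replicates 2 and 3) and 2 of 5 NPRA+/+ arrays (replicates 3 and 5). The level was -7.29, -6.26 and -6.61 in NPRA-/- hearts, against -7.31, -7.82, -6.85, -7.34 and -6.43 in NPRA+/+ hearts. The genotypes overlapped over most of their range, and the fitted change was 0.43 ± 0.34 (limma, adjusted p = 0.533), against 0.63 for probes as dim. The arrays on which Cxcr2 or Mmp8 was detected, NPRA-/- replicates 2 and 3 and NPRA+/+ replicates 3 and 5, were also the 4 with the largest share of all probes above background (92.6%, 92.1%, 88.8% and 83.9%). Over the 8 arrays the level of Cxcr2 correlated with that share with r = 0.77 and Mmp8 with r = 0.63, and so did Mpo (0.73) and Camp (0.62), which were detected on 7 and 8 arrays. These are descriptions, and the part of this share in the levels was not tested.

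**Figure D3:**
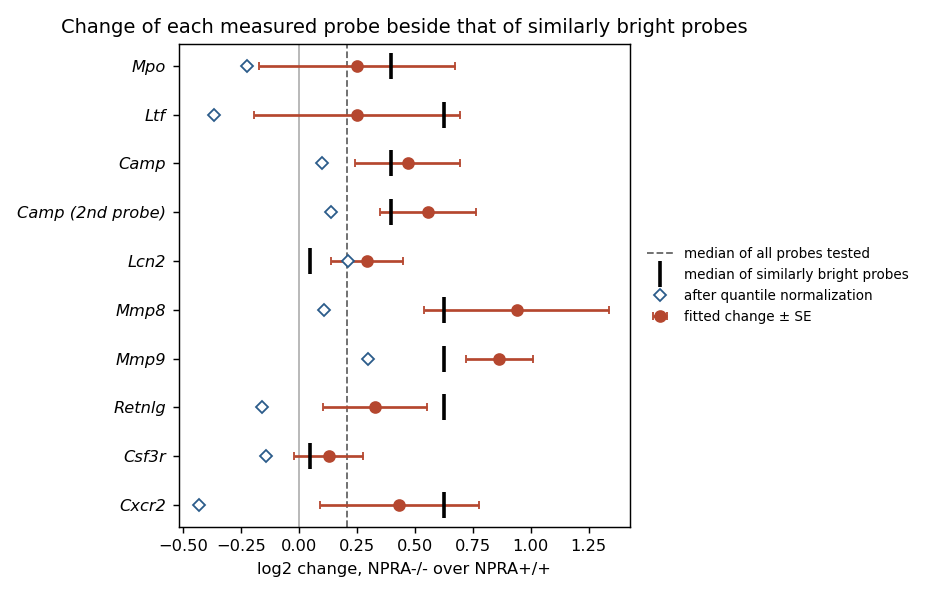
Fitted log2 change of NPRA-/- over NPRA+/+ for each of the 10 probes tested (horizontal axis, circles with SE), beside the median change of its brightness group (black ticks), the median of all probes (dashed line) and the change after quantile normalization (diamonds). Lcn2, Csf3r, Mmp8, Mmp9 and both Camp probes lie above the tick of their group, and the other 4 probes below it.

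Set against probes of like brightness, Lcn2 (0.24), Mmp8 (0.31), Mmp9 (0.24), Camp (0.07) and Csf3r (0.08) were above the median of their brightness group, and Mpo (-0.15), Ltf (-0.38), Retnlg (-0.30) and Cxcr2 (-0.19) were below it. Differences between genes were not tested. The distance from the group's median was larger than the SE of the change for Lcn2, Mmp9 and Retnlg, and smaller for the other 6. Retnlg, at a mean level of -4.78, lay near the bright edge of the dimmest group. Mpo, at -4.59, was already in the next group, where the median was 0.40, so the distance of Retnlg depends on that edge.

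The genes were also compared with each other over the 8 arrays, to see whether they varied together. Of the 36 pairs of the 9 genes above background on some arrays, 30 had a positive correlation, with a median r of 0.22, and none (0) had an adjusted p under 0.05 (exact permutation, Benjamini-Hochberg over the 36 pairs, smallest adjusted p 0.260). Without adjustment 3 pairs had an exact permutation p under 0.05. When each genotype's mean was taken away, the median r was -0.12 and 14 of 36 pairs were positive. The count also moved with the scaling. It was 20 of 36 after quantile normalization (median r 0.05) and 19 of 36 in the authors' deposited values (median r 0.04). Pairs of other genes were not counted. Mpo and Ltf, of the primary and the secondary granules, had the lowest r of the 36 (-0.64, exact permutation p = 0.0839, adjusted p = 0.468). It rested on the replicates 1, without which r was 0.55 (exact permutation p = 0.260).

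Camp and Lcn2 correlated with r = 0.81 (exact permutation p = 0.0167, adjusted p = 0.260) and rho = 0.86 (exact permutation p = 0.0107, adjusted p = 0.193). The correlation was r = 0.93 without the 2 arrays farthest from the median of Camp, 0.68 with the genotype means taken away, 0.65 after quantile normalization and 0.84 without both replicates 1. It stayed positive under all 13 alternatives run. So did the correlation of Mpo and Camp, of different granules. Its r was 0.67 (exact permutation p = 0.0691, adjusted p = 0.468), and 0.80 after quantile normalization. Ltf and Csf3r correlated with r = 0.82 (exact permutation p = 0.0144, adjusted p = 0.260) and rho = 0.88 (exact permutation p = 0.00724, adjusted p = 0.193), with r = 0.91 without the 2 arrays farthest from the median of Ltf, but it turned negative under other scalings: r was -0.39 with quantile normalization and -0.38 in the authors' deposited values. Mmp8 and Cxcr2, both near background, correlated with r = 0.79 (exact permutation p = 0.0217, adjusted p = 0.260) and rho = 0.76 (exact permutation p = 0.0368, adjusted p = 0.265). Without the 2 arrays farthest from the median of Mmp8 r was 0.48 (exact permutation p = 0.344). The size of r thus depended on those arrays, but leaving out extremes also narrows the range. On NPRA-/- replicate 1 Mmp8 was high and Cxcr2 low, and neither was well above background. Without that array r was 0.98 (exact permutation, adjusted p = 0.00714).

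**Figure D4:**
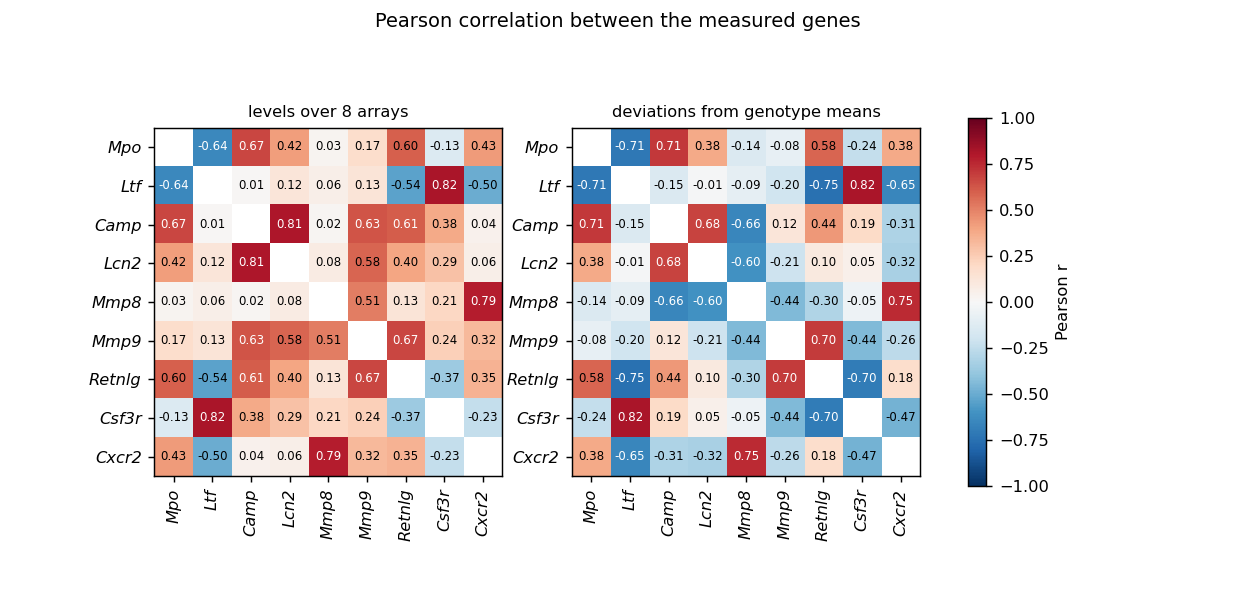
Pearson correlation of each pair of the 9 genes measured, over the levels of the 8 arrays (left) and over deviations from the mean of each genotype (right), coloured from -1 (blue) to 1 (red). Camp with Lcn2, Ltf with Csf3r and Mmp8 with Cxcr2 stand out on the left (r = 0.81, 0.82 and 0.79), and Ltf is negative against Mpo in both panels (r = -0.64 and -0.71).

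A search over 16516 other genes, each above background on all arrays, asked which followed the mean z-score of the 5 genes detected everywhere most closely over the 8 arrays. These were Sh2b2, Prkcd, Lce3c, Rps15a-ps6 and Hdhd3, each with r = 0.97. Prkcd encodes the protein kinase C delta and Sh2b2 an adaptor of receptor tyrosine kinases. The likeness is a description over 8 arrays that share a scaling, picked from many genes.

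The rest of the neutrophil programme was read from 4 further lists, chosen with earlier results of these data known, and in these too limma called 0 genes in either direction. Of the 31 other granule and effector genes listed, 29 were tested. Without adjustment 9 of the 29 had a p under 0.05, all with higher means in NPRA-/- hearts, and 8 had no overlap in that direction, where the same shares over all probes were 18.3% and 14.1%. Their median change was 0.52, and 0.07 after quantile normalization. The primary granule proteases Elane and Prtn3, the nearest relatives of Mpo by timing, had changes of 0.64 (limma, adjusted p = 0.653) and 0.14 (limma, adjusted p = 0.882).

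S100a8 and S100a9 encode the calprotectin subunits, the most abundant cytosolic proteins of neutrophils. S100a9 was at -0.86, -0.13 and -0.44 in NPRA-/- hearts, against -1.67, -1.56, -1.70, -1.13 and -1.53 in NPRA+/+ hearts, without overlap. Its fitted change was 1.04 ± 0.20 (limma, adjusted p = 0.0693), against 0.05 for probes of its brightness, and 0.96 after quantile normalization (limma, adjusted p = 0.357). S100a8 was at -2.17, -1.05 and -1.52 in NPRA-/- hearts, against -2.74, -2.85, -2.84, -2.25 and -2.48 in NPRA+/+ hearts, also without overlap. Its change was 1.06 ± 0.26 (limma, adjusted p = 0.0935), against 0.22 for probes of its brightness, and 0.85 after quantile normalization (limma, adjusted p = 0.524). Within scan day 1 the changes were 1.34 for S100a9 and 1.56 for S100a8 (limma, adjusted p = 0.0238 and 0.0246), where 15.6% of all probes were called higher. Both genes lie on chromosome 3, as does Npr1, with 14 and 13 protein-coding genes in between in the RefSeq table of GRCm38.p6.

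In the same list Slpi, an inhibitor of neutrophil elastase, had a change of 0.85 ± 0.19 (limma, adjusted p = 0.0825), against 0.40 for similarly bright probes, and 0.53 after quantile normalization. Wfdc21, a small protein of the same fold, had a change of 0.76 ± 0.14 (limma, adjusted p = 0.0635), against 0.63, and 0.12 after quantile normalization. Wfdc21 was near background and detected on 2 NPRA-/- arrays and 2 NPRA+/+ arrays. The brightest members of the list, Itgam (the integrin CD11b) and Cyba (a subunit of the phagocyte oxidase), had changes of 0.031 ± 0.51 and -0.13 ± 0.24 (limma, adjusted p = 0.983 and 0.817). Neither is limited to neutrophils.

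Of 21 receptors tested, 5 had an unadjusted p under 0.05 with the higher mean in NPRA-/- hearts, where 18.3% of all probes did, and the median change was 0.29. Fpr1, the receptor for formylated bacterial peptides, had a change of 0.55 ± 0.12 (limma, adjusted p = 0.0754), Fcgr4, an Fc receptor, of 0.39 and Clec4d, a lectin of myeloid cells, of 0.60. The adjusted p of Fcgr4 and Clec4d lay at 0.164 and 0.172 (limma). The medians of similarly bright probes were 0.40, 0.22 and 0.40 for these genes in order, and after quantile normalization their changes were 0.22, 0.17 and 0.21. The brightest 2, Csf2ra and Pirb, had changes of -0.032 and 0.18.

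Of 21 ligands and inhibitors tested, 3 had an unadjusted p under 0.05 with the higher mean in NPRA-/- hearts (Tnf 0.57, Ppbp 0.67 and Lrp2, an uptake receptor that binds lipocalin-2, 1.15), where 18.3% of all probes did, and 1 with the lower, where 1.36% did. The medians of similarly bright probes were 0.40 for Tnf, 0.05 for Ppbp and 0.63 for Lrp2, and the changes after quantile normalization were 0.099, 0.56 and 0.67. The lower gene was Cxcl1, which encodes a ligand of Cxcr2. Cxcl1 was at -2.53, -2.36 and -2.29 in NPRA-/- hearts, against -1.55, -2.10, -1.67, -2.24 and -1.94 in NPRA+/+ hearts, without overlap, as for 1.29% of all probes in that direction. Its change was -0.49 ± 0.18 (limma, adjusted p = 0.196), and -0.72 after quantile normalization (limma, adjusted p = 0.376). It was negative under all 26 alternatives run. The brightest inhibitors of matrix proteases, Timp2 and Timp3, had changes of 0.25 and 0.16 (limma, adjusted p = 0.528 and 0.584).

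Of the 16 transcription factors and kinases of granulopoiesis, all of which were tested, 2 had an unadjusted p under 0.05 with the higher mean in NPRA-/- hearts, where 18.3% of all probes did. Cebpe, the factor that switches on the secondary granule genes, had a change of 1.17 ± 0.26 (limma, adjusted p = 0.0815), well above background on 3 of 3 NPRA-/- arrays and 1 of 5 NPRA+/+ arrays. Similarly dim probes had a median of 0.63, and its change was 0.66 after quantile normalization. It passed without NPRA+/+ replicate 1 (limma, adjusted p = 0.0316) and with array weights (limma, adjusted p = 0.00426), where 11% and 25.4% of all probes were called higher. Gfi1, a repressor needed for neutrophil maturation, had a change of 0.81 (limma, adjusted p = 0.147), and 0.15 after quantile normalization, and was detected on 2 NPRA-/- arrays and 1 NPRA+/+ array. Runx1, Cebpd and Cebpb had changes of 0.34, 0.26 and 0.089 (limma, adjusted p = 0.275, 0.441 and 0.761).

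Markers of other cells were read beside these values. All 14 heart muscle genes had fitted changes above 0, as did 75% of all probes, and none (0) had an unadjusted p under 0.05 (limma). Their median change was 0.60, with a median of 0.55 above their brightness groups, and 0.19 after quantile normalization. Their summed level was between 10.02 and 11.32 on NPRA-/- arrays, against 9.14 to 11.01 on NPRA+/+ arrays. An unadjusted p under 0.05 with the higher mean in NPRA-/- hearts was seen for 18.3% of all probes. The counts were 3 of 13 lymphocyte, 3 of 11 fibroblast and 3 of 10 mast cell, basophil and eosinophil genes. They were 2 of 13 for erythroid and platelet genes and 0 of 12 for endothelial genes. Differences between these counts were not tested. Of 13 macrophage and monocyte genes tested, none (0) had an unadjusted p under 0.05, with a median change of 0.16, and their summed level lay between 4.61 and 4.71 on NPRA-/- arrays and between 4.25 and 4.67 on NPRA+/+ arrays. Of 7 mesothelial genes tested, 1 (Msln) was called higher, as were 113 of all 35329 probes. An unadjusted p under 0.05 with the higher mean in NPRA-/- hearts was seen for 4 of the 7, and for 18.3% of all probes. The median change of the 7 was 2.06. The change of Msln was 2.48 ± 0.36 (limma, adjusted p = 0.0498) and missed the threshold after quantile normalization (2.26; limma, adjusted p = 0.337) and with a block for the repetition or source name number (limma, adjusted p = 0.136 and 0.0838). The summed level of the list was between 0.31 and 0.85 on NPRA-/- arrays, against -0.53 to 0.03 on NPRA+/+ arrays, with Krt8 below background on all arrays. The part of any of these cell types in the values of Lcn2, Slpi and the other genes above was not tested.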

How the data were processed

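Per the file headers, Agilent's Feature Extraction software (version 11.0.1.1) made the authors' intensity values, 1 per spot, already background-subtracted on each array but with no scaling across arrays. Flags of 0 or 1 per spot, deposited in the same files, mark those well above background, saturated or outlying. In the deposited series table the values are log2, of a normalization the sources used here do not state. Its columns share a median of 7.04 and follow their arrays in rank (correlation at least 0.999), and 56 of its 39485 entries were left unused.

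After removal of control spots, outlier-flagged spots were made missing, log2 values of a probe's spots were averaged, and the 75th percentile of the array was subtracted. The fit took the 35329 probes detected on 3 or more of the 8 arrays and left out 4100. The number of saturated spots was 0. RefSeq names of GRCm38.p6 gave 27234 probes 1 symbol and 12195 none, and the brightest probe stood for a gene. Genotypes were compared by limma 3.58.1 (R 4.3.3; lmFit and eBayes, two-sided, genotype alone, Benjamini-Hochberg over all probes fitted, threshold 0.05), and correlations by exact permutation in Python 3.11.15 with scipy 1.17.1. Normexp, one of the alternatives, used the median spot signal. Precision is limited by the number of arrays.

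The genes and lists were chosen with earlier results of these data known. Other genes named are the 4 of smallest p and the 2 brightest of each list, marker genes among the 3 brightest of a cell type, and the 5 closest in pattern. A gene that this rule names is not reported here. Elane, Prtn3, Msln and Krt8 were picked after their values were seen.

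Deviations from the genotype mean correlated between equal repetition numbers (r = 0.63, 0.28 and 0.36), but also between unequal ones (0.33 for NPRA-/- replicate 3 with NPRA+/+ replicate 2), and by source name, where 3 NPRA+/+ arrays are numbered 1, 2 of the pairs were at -0.37. The arrays came from 4 scan days, of which day 1 alone held both genotypes. The labels name no slide. The slide used as a block below was inferred from when each array was scanned, and it may not be the true one.

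In a simulation of this design on 35329 probes, limma called 32%, 78%, 96% and 94% of 50 probes changed by 1, 2, 3 and 4 log2 units, with 17 false calls among 167. Noise was drawn independently for each probe and array. The simulation held no shift of dim probes, no scan days and no pattern shared by the replicates 1. Its shares therefore need not hold for these arrays.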

Additional observations from a re-analysis of the deposited data

Results flagged for a closer look

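Of 34 probes tested for an array far from the others of its group, 1 stood out, where chance alone picks about 1 in 20. Timp2, an inhibitor of matrix proteases, was at 3.10 on NPRA+/+ replicate 1, against 3.54 to 3.68 on the other 4 NPRA+/+ arrays. The gap was 0.76 of the range, above the critical value of 0.71 for 5 arrays. None (0) of the 11 probes of the 10 neutrophil genes had such an array among the NPRA+/+ samples. The 3 NPRA-/- arrays are too few for this check.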

How the results depend on the processing

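The number of probes called moved under every alternative, from 123 to 0 with quantile normalization, scaling to the median, normexp, the deposited table, scan day or slide as a block, a replicate block by repetition number, NPRA+/+ arrays of 1 source number averaged, and trend with robust variances. It was 22 with a replicate block by source name number, 193 without a filter, 3 with probes above background on all 8 arrays, 5979 within scan day 1 and 9761 with array weights. Leaving out single arrays gave 0 to 4088, the highest without NPRA+/+ replicate 1. Of the alternatives added after the data were seen, flagged spots kept gave 42, medians of spots 39, leaving out both replicates 1 gave 4134 and quantile normalization within scan day 1 gave 0. The number of the 9 genes called was 1 (Mmp9) within scan day 1, with array weights, with flagged spots kept, without both replicates 1, and 0 to 1 when single arrays were left out. Either replicate block, run on all arrays, left 0 of the 9 called. Of the 23 other named genes of the neutrophil lists 0 were called, against 11 with array weights, 7 within scan day 1, 6 without both replicates 1 and 5 without that of NPRA+/+ alone. Of all probes, 25.4%, 15.6%, 11.2% and 11% were called higher under these settings, in the same order. Many of the 23 were named for a small p in the main fit of these same arrays. Their counts therefore cannot show whether the lists differ from other genes. The median of the 9 genes relative to all probes, 0.12, lay between -0.16 and 0.40. The number of correlated pairs was 0 to 1 when single arrays were left out, and 0 otherwise. With any spot above background sufficing, 6 genes were detected on all arrays.

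Signs turned as follows, for genes of which none was called. Quantile normalization gave -0.14 for Csf3r, -0.43 for Cxcr2, -0.36 for Ltf, -0.22 for Mpo, -0.16 for Retnlg, -0.062 for Cebpb and -0.14 for Runx1, and r = -0.39 for Ltf with Csf3r. The deposited table gave -0.15, -0.36, -0.35, -0.21, -0.15, -0.065 and -0.13 for these genes in the same order, -0.067 for Mmp8 and r = -0.38 for the pair. Scaling to the median gave -0.16 for Csf3r, -0.040 for Ltf, -0.040 for Mpo, -0.20 for Cebpb, -0.027 for Cebpd, -0.26 for Itgam, -0.11 for Pirb, -0.039 for Timp2 and -0.13 for Timp3, and normexp -0.049 for Itgam. Scan day as a block and scan day 1 alone gave -0.084 for Csf3r, -0.42 for Ltf and 0.051 for Csf2ra. The replicate block by repetition number gave -0.13 for Ltf and -0.043 for Itgam, and array weights -0.16 for Ltf and 0.066 for Csf2ra. Without both replicates 1 Ltf was at -0.043, Itgam at -0.091 and Csf2ra at 0.081. Quantile normalization within scan day 1 gave -0.072 and -0.21 for the Camp probes, -0.17 for Csf3r, -1.06 for Ltf, -0.12 for Mpo, -0.034 for Clec4d, -0.23 for Runx1, -0.21 for Tnf and 0.056 for Csf2ra. Leaving out single arrays gave -0.24 to 0.52 for Ltf, -0.43 to 0.37 for Itgam and -0.17 to 0.14 for Csf2ra. The cause of these changes was not tested. Signal close to background limits Ngp, Mmp8 and Cxcr2 most.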
